A study of Rattus norvegicus with 6 samples.

Results

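The unfolded protein response and the integrated stress response were followed through 10 genes, Atf4, Ddit3, Trib3, Asns, Chac1, Sesn2, Hspa5, Dnajb9, Xbp1 and Herpud1, in liver RNA of 6 male Sprague-Dawley rats. The members were all non-control probes whose RefSeq accession on the array belongs to these genes, which gave 15 probes for 10 genes, of 61657 probes and 15284 named genes in all. The rats were killed after isoflurane (n = 3) or CO2/O2 (n = 3) anaesthesia, with 1 rat on each array. Isoflurane is a volatile anaesthetic, whereas carbon dioxide mixed with oxygen makes rodents unconscious by acidifying blood and brain. All rats, in both groups, were 9 weeks old and had received corn oil at 5 mL/kg/day, for a time that the labels give both as 3 days and as 9 weeks. The comparison asks how the kind of anaesthesia before killing relates to liver gene expression. No rat without anaesthesia was measured, and Sprague-Dawley rats are an outbred stock.

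Cells answer protein misfolding in the endoplasmic reticulum (ER) and shortage of amino acids through overlapping programmes. ER stress acts through the sensors ATF6, IRE1 and PERK. ATF6 and the spliced form of XBP1 induce chaperones and degradation factors through promoter sites known as ER stress response elements. PERK and the amino acid sensor GCN2 phosphorylate eIF2alpha, which slows translation in general but raises translation of ATF4, a transcription factor that binds C/EBP-ATF response elements and induces genes of amino acid supply and stress. The liver secretes most plasma proteins, so its hepatocytes hold a large ER and express the chaperones of this system at all times.

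The 10 genes were set in 2 arms. The ATF4 arm comprised Atf4 itself, Ddit3 (the transcription factor CHOP), Trib3 (a pseudokinase induced by ATF4 and CHOP), Asns (asparagine synthetase), Chac1 (an enzyme that breaks down glutathione) and Sesn2 (a stress-induced inhibitor of mTORC1 signalling). The ER chaperone arm comprised Hspa5 (the chaperone BiP), Dnajb9 (the BiP co-chaperone ERdj4), Xbp1 (the transcription factor spliced by IRE1) and Herpud1 (a factor of ER-associated degradation). An array probe measures the RNA of these genes, not the translation of ATF4, the splicing of Xbp1 or the phosphorylation of eIF2alpha.

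The promoters of 5 members held a match to ER stress or C/EBP-ATF response elements, although the arms were not set by these elements. The stretches are shown because Herpud1, placed in the ER chaperone arm, held both kinds. The 250 bases before each RefSeq gene start (assembly GRCr8, windows for 10 of 10 members) were searched on both strands for ERSE (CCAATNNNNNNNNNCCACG), ERSE-II (ATTGGNCCACG), the unfolded protein response element UPRE (TGACGTGG) and the C/EBP-ATF element CARE (TGATGNAA). Capitals mark the matches, and each stretch is written 5′ to 3′ along the gene's strand. Hspa5 (chr3:38452953-38453011, + strand) and Xbp1 (chr14:84604538-84604596, + strand) held an ERSE. Herpud1 (chr19:10614801-10614911, - strand) held a CARE on the opposite strand and an ERSE-II further downstream. Trib3 (chr3:161275534-161275574, - strand) and Chac1 (chr3:126795944-126795991, + strand) held a CARE on the opposite strand.
Hspa5: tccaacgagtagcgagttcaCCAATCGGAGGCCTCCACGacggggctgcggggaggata
Xbp1: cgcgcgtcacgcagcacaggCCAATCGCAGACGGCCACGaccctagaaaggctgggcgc
Herpud1: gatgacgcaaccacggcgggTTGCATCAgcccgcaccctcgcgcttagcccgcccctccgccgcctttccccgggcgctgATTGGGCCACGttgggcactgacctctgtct
Trib3: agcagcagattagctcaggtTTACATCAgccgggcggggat
Chac1: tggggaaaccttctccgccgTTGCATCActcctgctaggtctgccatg

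An ERSE was found in 2 of the 4 ER chaperone arm promoters and 0 of the 6 ATF4 arm promoters, against 0.0657% of 33469 promoter windows. An ERSE-II was found in 0.0418% of windows and, among the members, in Herpud1. The short CARE was found in 3.4% of windows, and in 2 ATF4 arm promoters besides that of Herpud1. UPRE, found in 0.52% of windows, had no match in these windows of the members. A match is a description of letters, and no binding was measured here.

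Signals are given as log2 units relative to the 75th percentile of non-control probes on the same array, so that 0 is that percentile. Levels of different probes are not compared, since probes differ in how they bind. Where a gene had several probes, the tested probe with the highest mean over the 6 arrays stands for it. All 10 genes passed the filter on dim probes, which required that all 3 arrays of either group rise well over background, and no spot of a member was marked as an outlier. The share of probes detected over background ran per array from 53.4% in isoflurane replicate 2 to 62.3% in CO2/O2 replicate 3. Isoflurane replicate 3 was second lowest, at 55.7%, and 0 spots were saturated. All 6 arrays lay on 1 slide. The 3 CO2/O2 arrays and isoflurane replicate 1 lay in its first row, and isoflurane replicates 2 and 3 in its second. The hepatocyte markers were tested on these arrays for 10 of 10 genes, with a mean per array within 0.09 of their own average.

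None of the 10 genes passed the threshold between isoflurane and CO2/O2. Over all genes, 0 of 10609 (0%) had an adjusted p under 0.05 in limma, and 3 of 34637 probes (0.00866%) did, none of them a member's. At an unadjusted p under 0.05 there was 1 of the 10 members, Dnajb9, against 7.58% of all genes. That count was 0 with median centring, without the filter on dim probes, with a block for slide row or replicate number, and without CO2/O2 replicate 1, CO2/O2 replicate 3 or isoflurane replicate 2. The member with the smallest adjusted p was also Dnajb9 (limma adjusted p = 0.658). By representative probe, the 95% confidence interval of the difference lay within 2-fold in either direction for 8 of the 10 genes. Over all genes this held for 9600 of 10609. The exceptions were Trib3 and Asns, where rats of 1 group differed most from each other. The other tested Chac1 probe, A_44_P776556, also ran past 2-fold on both sides, with an interval of -1.82 to 2.51.

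**Figure D1:**
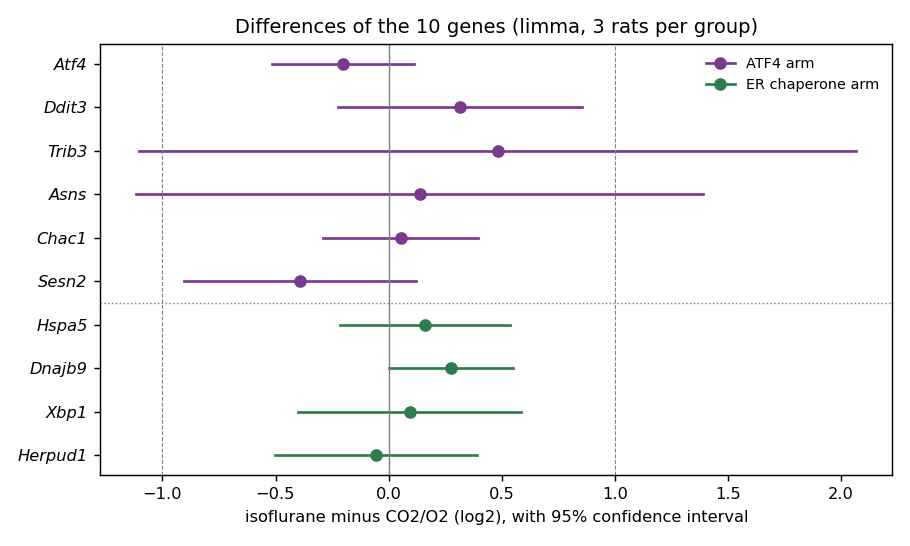
Difference of each gene, isoflurane minus CO2/O2 in log2 units, as points with 95% confidence intervals from limma (3 rats per group), with the ATF4 arm above the dotted line and the ER chaperone arm below it. Dashed lines mark 2-fold, and the intervals of Trib3 (-1.10 to 2.07) and Asns (-1.12 to 1.39) run past them on both sides.

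Atf4 encodes the factor that gives its arm its name. Its signal was 4.47, 4.77 and 4.74 in isoflurane replicates 1 to 3, against 4.88, 5.02 and 4.68 in CO2/O2 replicates 1 to 3. The groups overlapped, since the lowest CO2/O2 rat lay below both isoflurane replicates 2 and 3. The difference was -0.20 ± 0.13 (SE, limma adjusted p = 0.755), with a 95% interval of -0.52 to 0.11.

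Ddit3, which encodes CHOP, a factor of prolonged stress, had 2.82, 3.10 and 3.48 in isoflurane replicates 1 to 3, against 2.68, 3.18 and 2.59 in CO2/O2 replicates 1 to 3. Isoflurane replicate 3 was highest and CO2/O2 replicate 2 second, so the groups overlapped. The difference was 0.32 ± 0.22 (SE, limma adjusted p = 0.777). The other Ddit3 probe, on a second RefSeq transcript of the gene, put the 6 rats in the same order, with 0.0055, 0.26 and 0.79 in isoflurane replicates 1 to 3 against -0.04, 0.42 and -0.16 in CO2/O2 replicates 1 to 3, and a difference of 0.27 ± 0.24.

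Trib3 varied more between rats than any other member by its representative probe. Its signal was -0.21, 0.96 and 2.21 in isoflurane replicates 1 to 3, against -0.02, 1.33 and 0.20 in CO2/O2 replicates 1 to 3. The highest and the lowest rat were both isoflurane rats and lay 5.35-fold apart. The difference between groups was 0.48 ± 0.65 (SE, limma adjusted p = 0.891). It was -0.13 without isoflurane replicate 3 and -0.71 once slide row was a block, where isoflurane replicate 1 is the only rat of its group set against CO2/O2. The pooled SD within groups was 1.0, at percentile 98.8 of all tested genes.

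Asns, which makes asparagine from aspartate and glutamine, was high in a single rat. Its signal was -0.02, -0.07 and 1.86 in isoflurane replicates 1 to 3, against 0.38, 0.63 and 0.36 in CO2/O2 replicates 1 to 3. Isoflurane replicate 3 exceeded every other rat by at least 1.23 log2 units, while the other 2 isoflurane rats lay below all CO2/O2 rats. The difference between groups was 0.14 ± 0.52 (SE, limma adjusted p = 0.970), and it took the other sign, at -0.50 without isoflurane replicate 3 and -0.47 once slide row was a block.

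Chac1 was measured by 3 probes that ranked the rats differently. The brightest, A_64_P112406, spanned 1.43-fold, with 1.03, 0.52 and 0.76 in isoflurane replicates 1 to 3 against 0.66, 0.78 and 0.71 in CO2/O2 replicates 1 to 3. It stands for the gene, with a difference of 0.05 ± 0.14 (SE, limma adjusted p = 0.954). Probe A_44_P776556 had -3.35, -1.86 and 0.30 in isoflurane replicates 1 to 3, against -2.50, -1.33 and -2.13 in CO2/O2 replicates 1 to 3. That probe spanned 12.6-fold over the 6 rats and shared with Trib3 its highest rat (isoflurane replicate 3), its second (CO2/O2 replicate 2) and its lowest (isoflurane replicate 1). Its difference was 0.35 ± 0.89. The third probe, A_43_P17471, was too dim to be tested and was also highest in isoflurane replicate 3, at -3.60 against -4.58 in the next rat. All 3 carry the same RefSeq accession, and the part of the transcript that each one binds was not analysed here.

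**Figure D2:**
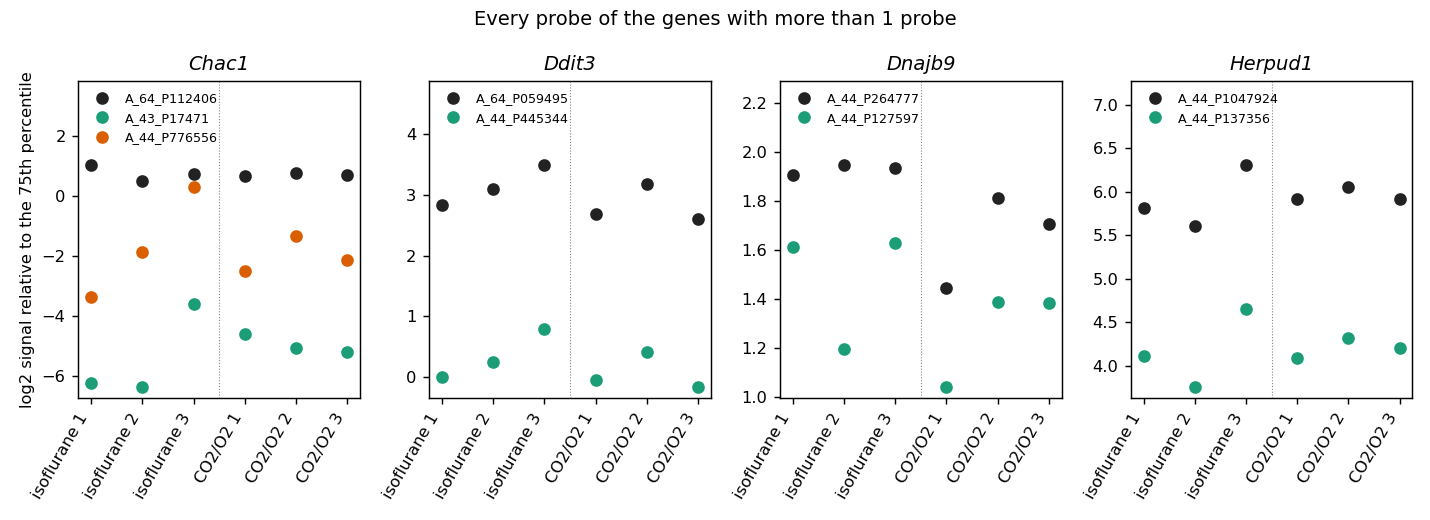
Signal of every probe of the genes with more than 1 probe, in log2 units relative to the array's 75th percentile, by rat, with isoflurane replicates left of CO2/O2 replicates. The 2 probes of Ddit3 and of Herpud1 run in parallel, whereas Chac1 probes A_44_P776556 and A_43_P17471 were highest in isoflurane replicate 3 and probe A_64_P112406 stayed between 0.52 and 1.03.

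Sesn2 was not highest in isoflurane replicate 3, and neither were Atf4 and the Chac1 probe that stands for its gene. The Sesn2 signal was -0.96, -1.66 and -1.33 in isoflurane replicates 1 to 3, against -1.21, -0.84 and -0.72 in CO2/O2 replicates 1 to 3. The 2 highest rats were CO2/O2 rats and the 2 lowest were isoflurane rats, with an overlap in between. The difference was -0.39 ± 0.21 (SE, limma adjusted p = 0.724), the largest below 0 among the 10 genes. Sesn2 is also known as a p53 target, so it belongs to a second stress programme as well.

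In the ER chaperone arm, Hspa5 encodes BiP, the most abundant ER chaperone and the brake on the 3 sensors. Its signal was 6.87, 6.84 and 6.48 in isoflurane replicates 1 to 3, against 6.48, 6.42 and 6.80 in CO2/O2 replicates 1 to 3. Isoflurane replicates 1 and 2 and CO2/O2 replicate 3 were high and the other 3 rats low, so both groups held high and low rats. The difference was 0.16 ± 0.16 (SE, limma adjusted p = 0.839), with a 95% interval of -0.22 to 0.54.

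Dnajb9, a co-chaperone that holds BiP on the sensor IRE1, was the 1 member whose groups did not overlap. Its signal was 1.90, 1.94 and 1.93 in isoflurane replicates 1 to 3, against 1.45, 1.81 and 1.70 in CO2/O2 replicates 1 to 3. The groups did not overlap for 14.2% of all genes, with isoflurane above for 6.01% and below for 8.16%, so 1 of 10 members is near the background. The difference was 0.27 ± 0.11 (SE, 95% interval 0.0014 to 0.55), or 1.21-fold. Its second probe gave 1.61, 1.20 and 1.63 in isoflurane replicates 1 to 3 against 1.04, 1.39 and 1.38 in CO2/O2 replicates 1 to 3. With that probe the groups overlapped, at a difference of 0.21 ± 0.16.

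Xbp1 had 4.14, 4.47 and 4.03 in isoflurane replicates 1 to 3, against 4.15, 3.76 and 4.45 in CO2/O2 replicates 1 to 3. Both the highest isoflurane rat and the highest CO2/O2 rat stood about equally far above the rest of their groups. The difference was 0.09 ± 0.20 (SE, limma adjusted p = 0.941), and its sign turned without CO2/O2 replicate 2 (-0.09) or isoflurane replicate 2 (-0.03).

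Herpud1, whose product helps to move misfolded proteins out of the ER, had 5.81, 5.61 and 6.30 in isoflurane replicates 1 to 3, against 5.92, 6.06 and 5.92 in CO2/O2 replicates 1 to 3. Isoflurane replicate 3 was highest and CO2/O2 replicate 2 second, as for Ddit3 and Trib3, whereas Hspa5 and Xbp1 were low in those same 2 rats. The second Herpud1 probe gave the same 2 rats as highest, at 4.65 in isoflurane replicate 3 and 4.32 in CO2/O2 replicate 2. The difference between groups was -0.06 ± 0.18 (SE, limma adjusted p = 0.964). The 250 bases searched for Herpud1 held both a CARE and an ERSE-II. Those of Asns and Ddit3, highest in the same 2 rats, held no match to TGATGNAA. Bases further upstream, and variants of the elements, were not searched. Whether these elements bear on the ranking of the rats was not tested.

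**Figure D3:**
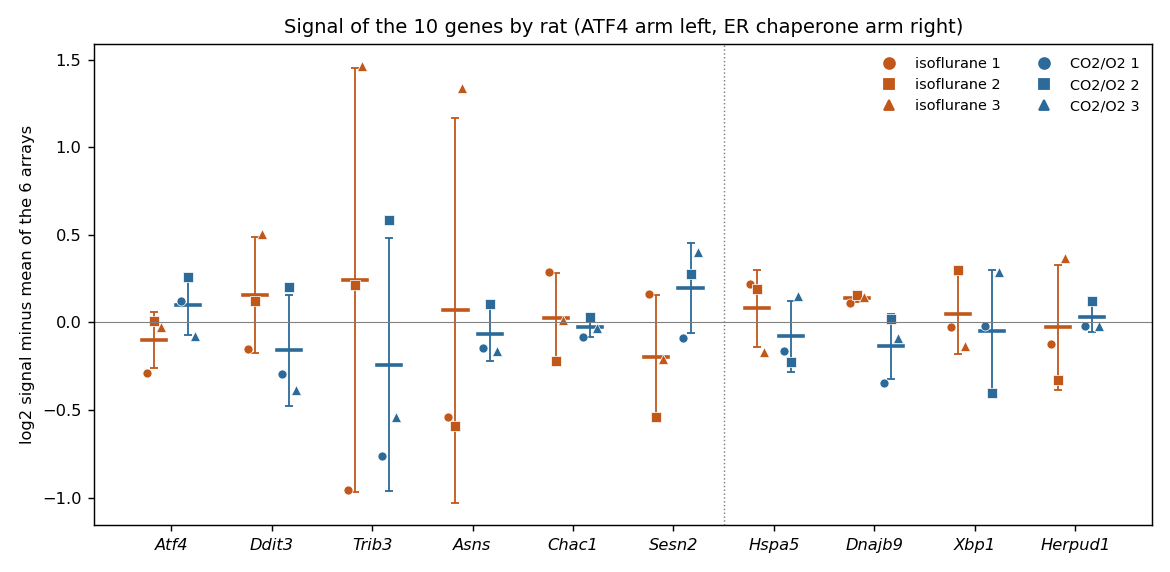
Signal of the representative probe of each gene, in log2 units minus the gene's mean over the 6 arrays, with isoflurane rats left of CO2/O2 rats for each gene. Symbols are single rats, bars the group mean and whiskers the SD (n = 3), and Trib3 (1.46) and Asns (1.34) in isoflurane replicate 3 are the highest points.

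Between groups, both arms had small positive median differences. The ATF4 arm had a median difference of 0.10 (4 of 6 genes positive, range -0.39 to 0.48) and the ER chaperone arm 0.13 (3 of 4 positive, range -0.06 to 0.27). Over all tested genes the median was -0.01 and 47.1% were positive. These medians are descriptions of lists chosen with earlier results known and carry no test. Without isoflurane replicate 3 the ATF4 arm median was -0.18. In the first slide row alone, where isoflurane replicate 1 stands against the 3 CO2/O2 rats, the mean difference was -0.21 for the ATF4 arm and 0.10 for the ER chaperone arm.

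The arms ranked the rats differently. For this comparison each gene was centred on its mean over the 6 arrays and averaged within its arm. The ATF4 arm had -0.25, -0.17 and 0.51 in isoflurane replicates 1 to 3, against -0.21, 0.24 and -0.13 in CO2/O2 replicates 1 to 3. The ER chaperone arm had 0.05, 0.08 and 0.05 in isoflurane replicates 1 to 3, against -0.14, -0.12 and 0.08 in CO2/O2 replicates 1 to 3. Its group means differed by 0.12, against a pooled SD within groups of 0.09, though CO2/O2 replicate 3 was its highest rat. For the ATF4 arm the difference was 0.07 and the pooled SD 0.34. Neither difference was tested. The 2 rats high in the ATF4 arm were isoflurane replicate 3 and CO2/O2 replicate 2. CO2/O2 replicate 2 was low in the ER chaperone arm. These means hide split members. In isoflurane replicate 3, Trib3 (1.46), Asns (1.34) and Ddit3 (0.51) were raised, against Chac1 (0.01), Atf4 (-0.03) and Sesn2 (-0.21). In CO2/O2 replicate 2, all 6 ATF4 arm genes lay above their own mean. In that rat Xbp1 (-0.40) and Hspa5 (-0.23) lay below their means, and Herpud1 (0.12) and Dnajb9 (0.02) above.

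The ATF4 arm minus the ER chaperone arm was -0.29, -0.25 and 0.46 in isoflurane replicates 1 to 3, against -0.07, 0.37 and -0.22 in CO2/O2 replicates 1 to 3. Its mean was -0.03 ± 0.42 in isoflurane rats and 0.03 ± 0.30 in CO2/O2 rats (SD, n = 3 each). The difference of -0.05 between groups was therefore much smaller than the spread between rats of 1 group. With Chac1 given by probe A_44_P776556, a choice made after the data were seen, the 6 values were -0.60, -0.22 and 0.81 in isoflurane replicates 1 to 3, against -0.17, 0.44 and -0.26 in CO2/O2 replicates 1 to 3. The same 2 rats were highest with either probe.

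**Figure D4:**
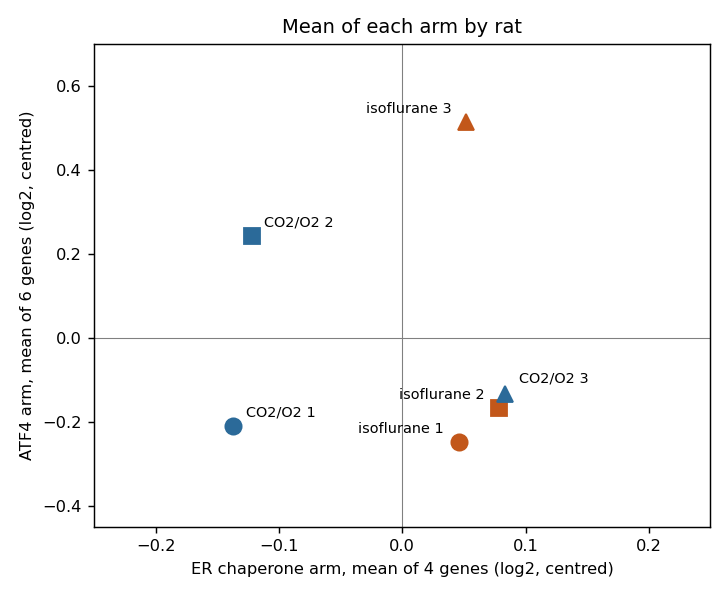
Mean of the ATF4 arm (6 genes, vertical axis) against mean of the ER chaperone arm (4 genes, horizontal axis) for each rat, in log2 units centred on the 6 arrays. Isoflurane replicate 3 lies highest at 0.51, CO2/O2 replicate 2 second at 0.24, and the other 4 rats lie between -0.25 and -0.13 on the vertical axis.

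Other known targets of ATF4 and CHOP were tested for 15 of the 19 genes on the array, and 0 passed the threshold in either direction. Slc7a11, Slc7a5, Vldlr and Stc2 were not above background on all 3 arrays of either group. The median difference was 0.05, with 8 genes positive and 7 negative, and Gdf15 and Bbc3 were the 2 of 15 below 0.05 before adjustment, where 7.58% of all genes lay. Gdf15, a stress-induced hormone, had the largest difference, at 1.0 ± 0.37 (SE, limma adjusted p = 0.640), with -2.10, -1.46 and -0.72 in isoflurane replicates 1 to 3 against -2.59, -2.01 and -2.69 in CO2/O2 replicates 1 to 3. Bbc3, which encodes the pro-apoptotic protein PUMA, had 0.36 ± 0.15. It was the 1 of 15 genes whose groups did not overlap (14.2% over all genes). Slc3a2, a subunit of amino acid transporters, had 0.17 ± 0.15. Of the 7 values below 0, those with the smallest p were -0.55 ± 0.27 for Ddit4, an inhibitor of mTORC1, -0.43 ± 0.20 for the transcription factor Cebpb and -0.26 ± 0.19 for Cth, which makes cysteine. Slc38a2, named after its values were seen, had -0.33 ± 0.37.

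Isoflurane replicate 3 was the highest of the 6 rats for 8 of these 15 targets, against 21.0% of all genes. Fgf21, a liver hormone of fasting and of amino acid shortage, had 0.98, 2.48 and 4.75 in isoflurane replicates 1 to 3, against 0.75, 3.18 and 1.96 in CO2/O2 replicates 1 to 3. Its highest and second rats were thus those of Trib3. Nupr1, a stress-induced chromatin protein, had 3.20, 3.85 and 5.25 in isoflurane replicates 1 to 3, against 3.27, 4.27 and 4.29 in CO2/O2 replicates 1 to 3. Atf3, a stress-induced transcription factor, had -2.12, -0.58 and -0.20 in isoflurane replicates 1 to 3, against -1.25, -0.22 and -1.60 in CO2/O2 replicates 1 to 3. Fgf21, Nupr1 and Atf3 were named after their values were seen.

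Genes of serine, one-carbon and proline synthesis, which ATF4 also induces, were tested for 9 of 10 genes, and 0 passed the threshold. Phgdh, the first enzyme of serine synthesis, had -0.38, 2.0 and 3.97 in isoflurane replicates 1 to 3, against 1.89, 2.41 and 1.91 in CO2/O2 replicates 1 to 3. The CO2/O2 rats lay close together, while the isoflurane group held both the highest and the lowest rat, so the difference was only -0.21 ± 1.0 (SE, limma adjusted p = 0.978). Psat1, the next enzyme of that pathway and named after its values were seen, had -1.46, -0.45 and 0.76 in isoflurane replicates 1 to 3, against -0.96, -0.51 and -0.88 in CO2/O2 replicates 1 to 3. Mitochondrial Mthfd2 had -2.27, -1.70 and -1.21 in isoflurane replicates 1 to 3, against -1.98, -1.40 and -1.59 in CO2/O2 replicates 1 to 3. Isoflurane replicate 3 was highest for 6 of the 9 genes (21.0% over all genes), and isoflurane replicate 1 lowest for 4 of the 9 (12.3% over all genes).

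Psat1 had the largest difference of this list, at 0.40 ± 0.53, and Mthfd2 had -0.07 ± 0.29. Pycr1 and Pck2, named here to complete the list, had 0.03 ± 0.36 and 0.01 ± 0.25. The remaining differences were 0.22 ± 0.12 for Shmt2, 0.20 ± 0.12 for Aldh18a1, 0.13 ± 0.11 for Psph and -0.01 ± 0.11 for Aldh1l2. Aminoacyl-tRNA synthetases, which load amino acids onto tRNA, had a median difference of 0.07 (8 of 11 positive, 0 past the threshold). Lars1 had 0.19 ± 0.087 and was the 1 of 11 whose groups did not overlap (14.2% over all genes), and Aars1 had -0.14 ± 0.088. Isoflurane replicate 3 was highest for 6 of the 11 synthetases (21.0% over all genes) and CO2/O2 replicate 1 lowest for 7 (16.7% over all genes). The spread was narrow, with list means of -0.07, 0.02 and 0.15 in isoflurane replicates 1 to 3 against -0.20, 0.05 and 0.06 in CO2/O2 replicates 1 to 3.

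Isoflurane replicate 3 was at least 1 log2 unit above every other rat for 62 of 10597 genes (0.585%) with a value on all arrays. Asns (1.23), Fgf21 (1.57), Phgdh (1.56) and Psat1 (1.21) were among them, and Nupr1 (0.96) and Trib3 (0.88) came close. That limit was chosen after the values were seen. Among 1932 genes that varied at least as much as the mean of the ATF4 arm, the 3 whose centred values lay nearest to it over the 6 rats were Mcrip2, Eif4ebp1 and Mcf2l, at root mean square distances of 0.10, 0.11 and 0.13 log2 units. Eif4ebp1, an inhibitor of translation initiation that ATF4 induces, had 4.79, 4.93 and 5.68 in isoflurane replicates 1 to 3, against 4.70, 5.16 and 5.05 in CO2/O2 replicates 1 to 3. For the ER chaperone arm, 7876 genes qualified and the nearest were Pth2, Ssr4 and Trabd, at distances of 0.015, 0.025 and 0.033. Ssr4 encodes a subunit of the ER translocon-associated complex. Of all these nearest genes, only Eif4ebp1 was on the lists used here, among the other ATF4 and CHOP targets. For scale, the SD over the 6 rats was 0.31 for the mean of the ATF4 arm and 0.10 for that of the ER chaperone arm.

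Other ER chaperones and folding enzymes were tested for all 17 genes on the array, and 0 passed the threshold. The median difference was 0.08 and 14 of 17 were positive, against the 47.1% of all genes. Hyou1, an ER chaperone of the HSP70 class, had 4.15, 4.31 and 3.90 in isoflurane replicates 1 to 3, against 3.64, 3.67 and 4.24 in CO2/O2 replicates 1 to 3. The high rats were isoflurane replicates 1 and 2 and CO2/O2 replicate 3, as for Hspa5. The difference of Hyou1 was 0.27 ± 0.20 (SE, limma adjusted p = 0.785). Creld2, an ER stress protein, had 0.27 ± 0.21 and the disulphide isomerase Pdia6 had 0.18 ± 0.14. The largest values below 0 were -0.11 ± 0.10 for Dnajc10, -0.07 ± 0.20 for Pdia4 and -0.07 ± 0.094 for Fkbp2.

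CO2/O2 replicate 2 was the lowest of the 6 rats for 13 of the 17 (over all genes, for 12.7%). CO2/O2 replicate 3 was the highest for 10 (over all genes, for 1929 of 10597). The list mean was 0.03, 0.14 and -0.02 in isoflurane replicates 1 to 3, against -0.12, -0.22 and 0.20 in CO2/O2 replicates 1 to 3. CO2/O2 replicate 2, lowest in this list, was second highest in the ATF4 arm, whereas the lowest rat of the 4-gene ER chaperone arm was CO2/O2 replicate 1, which was low in the ATF4 arm too.

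Factors of ER-associated degradation and translocation were tested for all 13 genes on the array, with a median difference of 0.07 (9 positive, 0 past the threshold). Sec61a1, the pore subunit of the translocon, had 0.30, 0.30 and 0.28 in isoflurane replicates 1 to 3, against 0.07, -0.11 and 0.11 in CO2/O2 replicates 1 to 3. The difference was 0.27 ± 0.090 (SE, limma adjusted p = 0.612). It was the 1 of 13 genes below 0.05 before adjustment (7.58% over all genes) and the 1 of 13 whose groups did not overlap (14.2% over all genes), so both counts are near or below the background. Edem2 and Syvn1, of the degradation machinery, had 0.17 ± 0.11 and 0.13 ± 0.092, while Sel1l, Derl1 and Os9 had -0.06 ± 0.10, -0.05 ± 0.12 and -0.02 ± 0.086. CO2/O2 replicate 2 was the lowest rat for 7 of the 13 (12.7% over all genes).

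Among 14 tested sensors of ER stress, controllers of eIF2alpha and related factors, 4 were positive and 10 negative. The median difference was -0.06, with a range of -0.27 to 0.10 and 0 past the threshold. The related factors, Nfe2l2 (-0.04), Mbtps1 (-0.02), Mbtps2 (-0.19) and Creb3l3 (-0.08), were all among the negative ones. Eif2ak3, which encodes PERK, had 0.04 ± 0.10, Atf6 had 0.10 ± 0.14 and Dnajc3, an inhibitor of eIF2alpha kinases, had 0.06 ± 0.12. Eif2ak4, which encodes GCN2, had 0.75, 0.35 and 0.29 in isoflurane replicates 1 to 3, against 0.78, 0.66 and 0.68 in CO2/O2 replicates 1 to 3, a difference of -0.24 ± 0.14. Eif2ak2 had -0.25 ± 0.14 and Ppp1r15b, a subunit of an eIF2alpha phosphatase, had -0.27 ± 0.14.

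**Figure D5:**
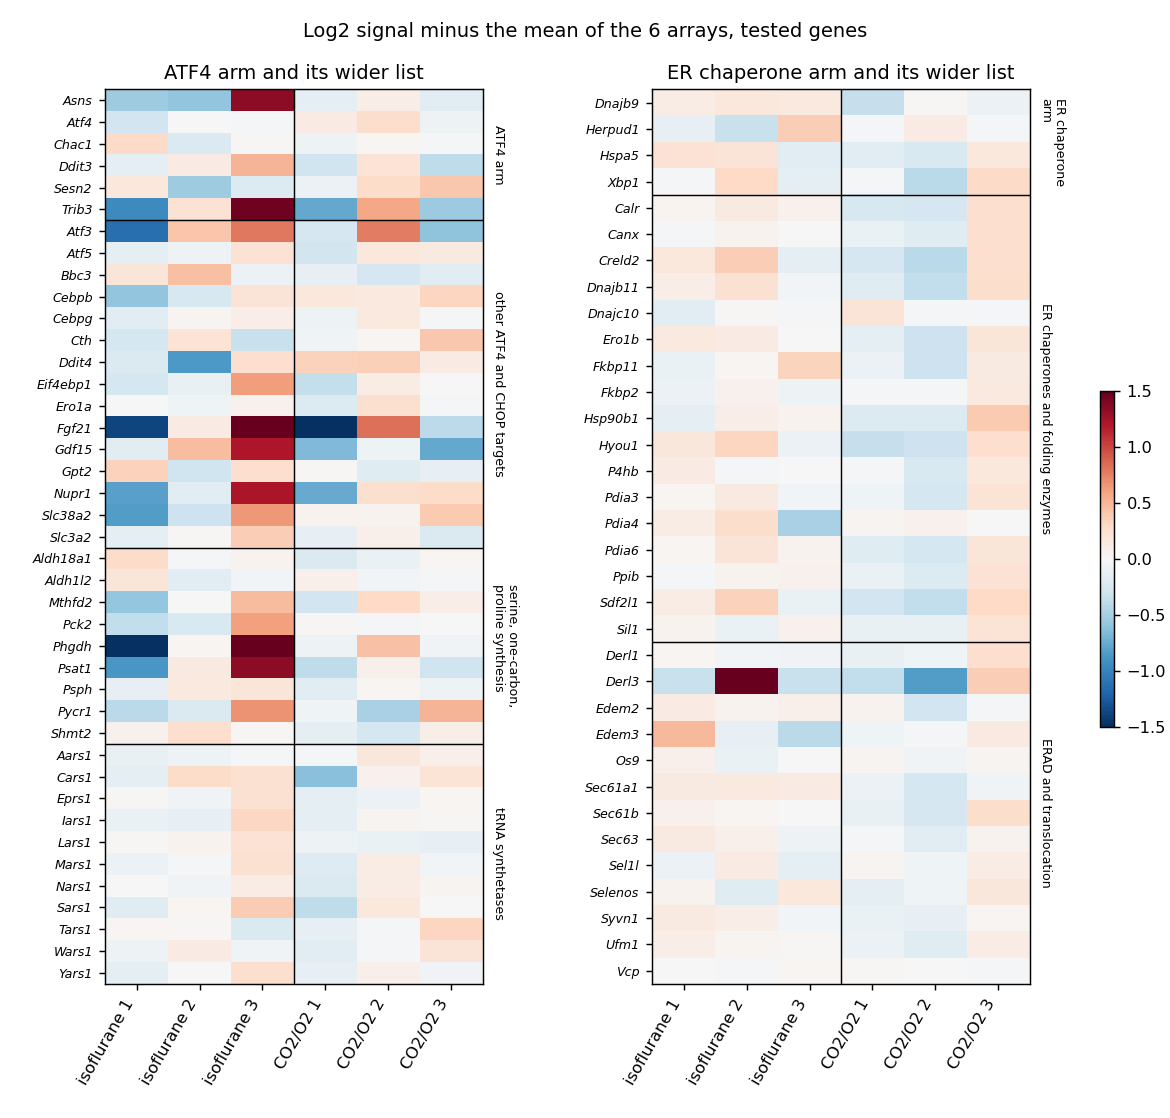
Log2 signal minus the gene's mean over the 6 arrays for tested genes of the ATF4 arm and its wider lists (left) and the ER chaperone arm and its wider lists (right, with ER-associated degradation as ERAD), with isoflurane rats left of CO2/O2 rats. On the left the column of isoflurane replicate 3 is reddest, as for Phgdh (2.0 above its mean) and Fgf21 (2.40), and on the right CO2/O2 replicate 2 is bluest among the ER chaperones.

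Markers of other cell types varied between rats, and Kupffer cell and erythroid markers leaned lower in isoflurane rats. In whole liver, fewer cells of a type and less RNA per cell cannot be told apart. Kupffer cell markers had negative differences for 10 of 10 tested genes, where 5614 of all 10609 genes did. For 6 of the 10, all isoflurane values lay below all CO2/O2 values (8.16% over all genes). An unadjusted limma p under 0.05 was found for 6 of the 10 (7.58% over all genes), and 0 passed the threshold. List means were -0.22 to -0.10 in isoflurane rats and -0.04 to 0.36 in CO2/O2 rats. In isoflurane replicate 3, the rat with the highest ATF4 arm, lymphocyte and plasma cell markers were lowest for 5 of 6 and erythroid markers for 5 of 5, while over all genes that rat was lowest for 2416 of 10597. The lymphocyte and plasma cell list mean was -0.68 there, 0.06 and 0.08 in the other isoflurane rats and 0.05 to 0.34 in CO2/O2 rats, and Cd3e and Cd2 did not pass the filter. The erythroid list mean was -0.68 there, -0.10 and 0.16 in the other isoflurane rats and 0.01 to 0.47 in CO2/O2 rats. Differences were negative for 5 of 5 erythroid markers and 5 of 6 lymphocyte and plasma cell markers. All isoflurane values lay below all CO2/O2 values for 2 genes of each of these lists. Hepatocyte markers averaged -0.07 in isoflurane replicate 3, within a range of -0.07 to 0.09 in isoflurane rats and -0.02 to 0.03 in CO2/O2 rats. Exocrine pancreas markers, from a tissue rich in ER chaperones, were tested for 5 of 10 genes, with means of -0.51 to 0.26 in isoflurane rats and -0.42 to 0.43 in CO2/O2 rats, while Prss1, Cpa1 and Pnlip did not pass the filter. The part of these cell types in the values of the members was not tested.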

How the data were processed

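Liver RNA of 3 isoflurane and 3 CO2/O2 rats was hybridised, per the labels' protocols, as Cy3-labelled cRNA to single-colour Agilent arrays, and the deposited intensity values were extracted with Agilent Feature Extraction 10.7, per the submitters' processing notes. The processed intensity, already corrected for background, was divided by its 75th percentile over 61657 non-control probes of the array and taken as log2, and 177 spots marked as outliers were left out. The deposited value table, used as an alternative, held for each array the same intensity as a ratio to 1 number per array, not centred. Its direction does not arise, since each array has 1 colour. Array accessions were named through the RefSeq table of GRCr8, which gave 27460 probes 1 gene.

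Probes that all 3 arrays of either group detected well over background (34637) were fitted by lmFit and eBayes of limma 3.58.1, run in R 4.3.3, with p-values adjusted over all of them by Benjamini-Hochberg at 0.05 and 95% intervals, and the fit was tested on simulated data. Differences are isoflurane minus CO2/O2. The number of arrays limits the precision. The members and lists were chosen with earlier results of these data known. Genes named from the wider lists were the 3 with the smallest p in each direction, and others are said to have been named after their values were seen. Alternatives were normexp with an offset of 50 on median spot signals, quantile normalization, median centring, the value table, other filters, outlier spots kept, a trended robust fit, the mean of a gene's probes, blocks for slide row and replicate number, and leaving out each rat. Deviations from the group means of rats with the same replicate number correlated at 0.11, 0.02 and 0.06, so the numbers were not taken as pairs. Slide and scan time could not be blocked, since there was 1 of each.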

Additional observations from a re-analysis of the deposited data

How the results depend on the processing

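None of the 10 members passed the threshold under any of 11 other settings or without any 1 rat. The smallest limma adjusted p over these was 0.431, for Dnajb9. The median difference of the ER chaperone arm was 0.038 without CO2/O2 replicate 2, 0.27 without CO2/O2 replicate 3 and 0.23 without isoflurane replicate 3, against 0.13 with all rats, and 0.038 to 0.27 over all leave-outs. That of the ATF4 arm ranged from -0.18 to 0.26 over the leave-outs and the slide row block gave -0.21. The arm contrast ranged from -0.30 to 0.12 over the leave-outs and the slide row block gave -0.32. With the other Chac1 probe, an alternative added after the data were seen, the ATF4 arm median was 0.23 and the contrast -0.0026.

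The sign turned for 5 members. The slide row block gave -0.71 for Trib3 and -0.47 for Asns, and median centring, which moved the median of all probes to -0.06, gave -0.0063 for Chac1. Leaving out 1 rat gave ranges of -0.13 to 1.08 for Trib3, -0.50 to 0.47 for Asns, -0.078 to 0.18 for Chac1, -0.086 to 0.26 for Xbp1 (-0.03 without isoflurane replicate 2) and -0.26 to 0.093 for Herpud1. The slide row block leaves 1 isoflurane rat, assumed to vary like the others, and apart from that the cause was not tested. The replicate block called 0 members and left the arm medians at 0.10 and 0.13 and the contrast at -0.05. Over all genes, 1 was called with the slide row block, 4 without CO2/O2 replicate 3, 8 without isoflurane replicate 1 and 0 in the other fits with 1 probe per gene. With 3 rats a group, intervals are wide for Trib3, Asns and the other tested Chac1 probe.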
